A study of Homo sapiens with 9 samples.

Results

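The genes described here encode the 2 lipid synthesis branches that the SREBP transcription factors control, and comprised 33 of the 26364 gene names in the count table. They were chosen by name, with earlier results of these data known, as 22 genes of the sterol branch and 11 genes of the fatty acid branch. RNA was measured in A549, a human lung adenocarcinoma line kept in medium with fetal bovine serum. The control group was unedited A549 (genotype WT, n = 2). The *LA* group (n = 2) carried guides against *LOC388942* and *ALK* that produced the intergenic *LOC388942-ALK* (*LA*) fusion. The sgScr group (n = 3) was *LA* cells with an added scramble guide, and the sg*FOS* group (n = 2) was *LA* cells with added guide RNA against *FOS*. Every group other than control therefore carried both fusion guides. The paper describes 2 guides against *FOS*, and the labels do not say which of them each sg*FOS* library carried. The methods describe fusion strains grown from single cells, and the labels do not say whether libraries of a group came from the same clone or from separate cultures, so that p-values measure the spread between these libraries, which may be technical.

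Cholesterol is built from acetyl-CoA through mevalonate, farnesyl diphosphate, squalene and lanosterol, and fatty acids are built from cytosolic acetyl-CoA by carboxylation, chain assembly, elongation and desaturation. SREBP proteins are held in the endoplasmic reticulum by INSIG proteins while sterols are plentiful, and travel to the Golgi to be cut and released when sterols fall. *SREBF2* encodes the form known mainly for sterol genes and *SREBF1* the form known mainly for fatty acid genes. Lung tumor cells need both products for membranes, and alveolar type II cells, the cells A549 is often used to model, make large amounts of lipid for surfactant.

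Library totals ranged from 14507228 to 20456341 counts. *FOS*, the gene targeted in the sg*FOS* group, was at 68.4 and 74.1 CPM (counts scaled to a common library total, in parts per 1e6) in the sg*FOS* libraries and at 196 to 203 CPM in the sgScr libraries, with a log2 fold change of -1.48 ± 0.044 (SE; adjusted p = 2.0e-25). The 7 epithelial markers summed to 13600 to 24700 CPM in control, 7870 to 13000 CPM in *LA*, 6970 to 7410 CPM in sgScr and 8290 to 8510 CPM in sg*FOS* libraries, nearly all of it from the keratins *KRT8*, *KRT18* and *KRT7*, whereas *CDH1* was lowest in control (18.6 and 22.0 CPM) and at 68.9 to 102 CPM in the other libraries. The 5 immune markers summed to 53.8 to 76.8 CPM in control and 37.3 to 56.2 CPM in the other groups, all of it from *CD14* and *CD68*, with *PTPRC*, *CD3E* and *MS4A1* at 0 in every library. The part that these marker differences have in the lipid genes was not tested. The replicate libraries differed widely in control and *LA* (chi-square per degree of freedom 125 and 58.1) and little in sgScr (1.76 to 2.65) and sg*FOS* (1.74). Across all tested genes, the log2 fold change of *LA* against control and of sgScr against control followed transcript length (Spearman correlation across genes 0.58 and 0.59), and that of sgScr against *LA* and of sg*FOS* against sgScr did so far less (-0.10 and -0.012). The correlation with GC content was -0.31, -0.39, -0.073 and 0.26 in the same order. Values corrected for both are given beside results that they change.

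The promoters of these genes are where SREBP proteins and their partners bind, so the proximal windows were searched on both strands. RefSeq windows on GRCh38.p14, from 250 bases before to 50 bases after a start, were matched for 29 of the 33 genes (43 windows). No window was matched for *FDFT1*, *FASN*, *ACAT2* and *SQLE*. The classical sterol regulatory element TCACNCCAC was found in 1 of 43 windows (2.33%, exact 95% binomial interval 0.0589% to 12.3%, counting error only), that of *SREBF2*, and in 0.959% of the 15327 windows of genes tested in *LA* against control, the background used for every motif here. The NF-Y box CCAAT was found in 26 of 43 windows (60.5%) against 34.2% in the background, in 19 of 26 sterol branch windows and in 7 of 17 fatty acid branch windows. The Sp1 box GGGCGG was found in 86.0% of the windows against 64.9%. The E-box CACGTG was found in 9.3% of the windows (*INSIG1*, *LSS* and *SC5D*) against 9.17%, and the AP-1 element TGANTCA, the sequence that FOS and JUN dimers recognise, in 0 of 43 windows against 5.4%. Overlapping matches were each counted, windows of a gene with several starts overlap, and a match of letters is a description and not a binding site. The 200 bases before the start are shown for *SREBF2* (chr22:41832905-41833104, plus strand), the only one of the 29 searched genes with a match of the sterol element in these windows. They are also shown for *INSIG1* (chr7:155297678-155297877, plus strand) and *SCD* (chr10:100347033-100347232, plus strand), which had the largest falls with the *FOS* guide, and for *TM7SF2* (chr11:65111672-65111871, plus strand), which rose. Capitals mark every match of the sterol element, E-box, NF-Y box and Sp1 box on either strand.
*SREBF2*: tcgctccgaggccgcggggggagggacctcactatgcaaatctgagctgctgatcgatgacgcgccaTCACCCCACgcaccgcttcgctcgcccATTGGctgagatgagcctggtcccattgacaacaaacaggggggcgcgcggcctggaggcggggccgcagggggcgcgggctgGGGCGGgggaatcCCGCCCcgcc
*INSIG1*: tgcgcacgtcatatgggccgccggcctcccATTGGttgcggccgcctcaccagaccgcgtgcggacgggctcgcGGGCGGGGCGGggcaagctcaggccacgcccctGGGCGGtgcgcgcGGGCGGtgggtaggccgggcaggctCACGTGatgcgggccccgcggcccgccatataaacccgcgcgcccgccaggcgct
*SCD*: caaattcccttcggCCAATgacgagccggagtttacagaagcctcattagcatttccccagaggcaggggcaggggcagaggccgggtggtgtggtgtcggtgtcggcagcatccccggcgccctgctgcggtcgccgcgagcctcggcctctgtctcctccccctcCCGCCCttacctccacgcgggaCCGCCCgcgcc
*TM7SF2*: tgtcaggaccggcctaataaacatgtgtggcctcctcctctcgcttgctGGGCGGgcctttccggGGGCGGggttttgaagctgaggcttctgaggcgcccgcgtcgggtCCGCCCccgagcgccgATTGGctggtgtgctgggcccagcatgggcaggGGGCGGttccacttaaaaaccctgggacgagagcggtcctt

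All 33 genes passed the expression filter in all 4 comparisons. Per kilobase of transcript, the highest levels in control cells were those of *EBP*, a sterol isomerase, with 132 CPM per kb, *FDPS*, the farnesyl diphosphate synthase, with 97.8 CPM per kb, *FADS2*, a front-end desaturase, with 95.6 CPM per kb, and *SCD*, which places the double bond of oleate, with 93.9 CPM per kb. The lowest were those of *SC5D*, a sterol desaturase, with 2.75 CPM per kb, and *ELOVL6*, which elongates palmitate, with 3.18 CPM per kb. *EBP* was at 197 and 99.7 CPM in the control libraries (SD 61.3 CPM per kb), so its lead lay within its own spread. In *LA* cells the order on the same scale was led by *SCD* with 359 CPM per kb, followed by *ACLY*, which makes cytosolic acetyl-CoA from citrate, with 212 CPM per kb, and *FADS2* with 187 CPM per kb. With 2 libraries of *SCD* at 1174 and 2589 CPM in *LA* cells, the distance between these neighbours was of the size of the spread within the group.

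**Figure D1:**
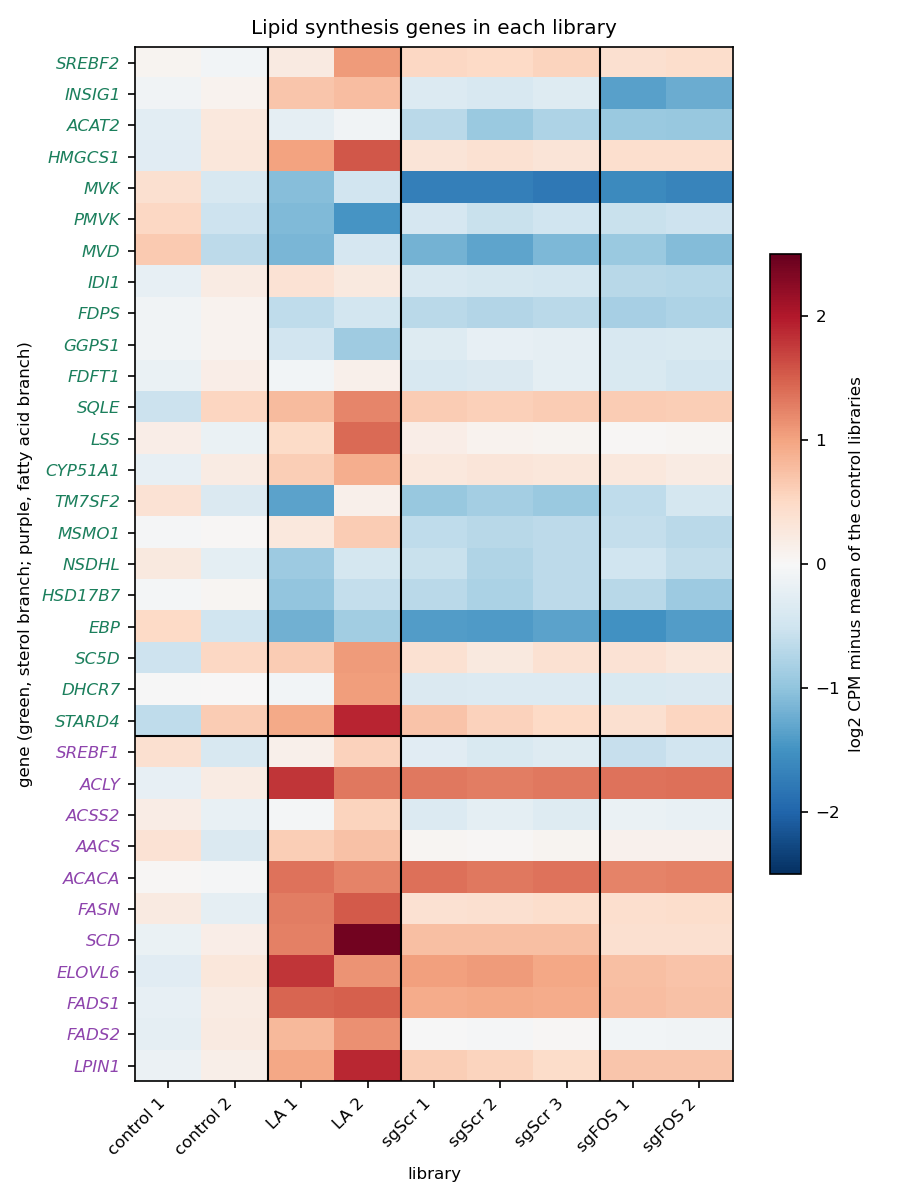
Each row is a gene, each column a library, and colour gives the log2 CPM minus the mean of the control libraries, with the sterol branch above the line and the fatty acid branch under it. *SCD* in LA 2 is the strongest red, *MVK* and *EBP* are blue in every sgScr and sg*FOS* library, and *INSIG1* is bluer in sg*FOS* than in sgScr libraries.

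The comparison of *LA* with control set fusion cells against unedited A549. The methods describe guides brought by lentivirus into A549-Cas9 cells, which were then grown from single cells. The fusion cannot be told apart here from the guides, any difference in Cas9, or the cloning. The fatty acid branch was higher in *LA* cells: 7 of its 11 genes rose, none fell, and the median log2 fold change was 1.37 against 0.044 over all genes tested. Over both branches 8 of 33 genes rose and 1 fell, where 9.57% of all tested genes were called higher and 9.94% lower. A gene was called when the two-sided quasi-likelihood test of edgeR gave an adjusted p under 0.05. *SCD* was measured at 437 and 548 CPM in control and at 1174 and 2589 CPM in *LA* libraries, so that the groups did not overlap and LA 2 was far above LA 1. It rose 3.73-fold (log2 1.90 ± 0.47, SE; adjusted p = 0.0072). *ACLY* was at 265 and 356 CPM in control and at 1053 and 766 CPM in *LA* libraries, here with LA 1 the higher, and rose 2.88-fold (log2 1.53 ± 0.43; adjusted p = 0.016). *FASN*, the fatty acid synthase itself, was at 477 and 347 CPM in control and at 988 and 1171 CPM in *LA* libraries, and rose 2.58-fold (log2 1.37 ± 0.43; adjusted p = 0.027). In all 3 genes the lowest *LA* library lay above the highest control library. Such separation, here and in the paragraphs below, comes from the libraries that gave the calls and is no further support. The share of all tested genes without overlap was not counted.

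The lowest *LA* library also lay above the highest control library for the other 4 fatty acid genes that rose. *FADS1*, the delta desaturase of long polyunsaturated chains, was at 134 and 179 CPM in control and at 428 and 438 CPM in *LA* libraries (log2 1.44 ± 0.41; adjusted p = 0.018). *LPIN1*, a phosphatidate phosphatase that feeds triglyceride synthesis, was at 27.1 and 33.2 CPM in control and at 58.3 and 111 CPM in *LA* libraries (log2 1.45 ± 0.42; adjusted p = 0.019). *ELOVL6* was at 16.9 and 24.9 CPM in control and at 70.3 and 44.3 CPM in *LA* libraries (log2 1.43 ± 0.43; adjusted p = 0.023). The *LA* libraries agreed closely for *FADS1* and differed most for *LPIN1* and *ELOVL6*, in opposite directions. *ACACA*, the carboxylase that makes malonyl-CoA, was at 94.2 and 91.5 CPM in control and at 237 and 220 CPM in *LA* libraries (log2 1.27 ± 0.40; adjusted p = 0.027). The 4 fatty acid genes not called were *FADS2* (log2 0.94), *AACS* (0.61), an acetoacetyl-CoA synthetase, *SREBF1* (0.30) and *ACSS2* (0.25), which activates acetate. *SREBF1* was at 394 and 229 CPM in control and at 327 and 450 CPM in *LA* libraries, with overlapping groups (adjusted p = 0.66).

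**Figure D2:**
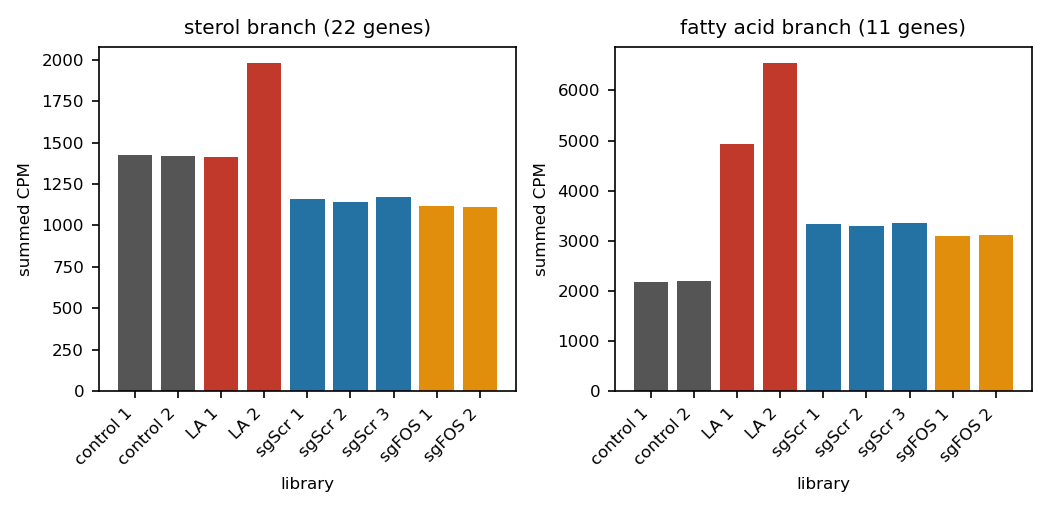
Bars give the CPM summed over the 22 sterol genes (left) and the 11 fatty acid genes (right) in each library, coloured by group. The fatty acid sum lay at 2174 to 2206 CPM in control, 4930 to 6538 in *LA*, 3303 to 3358 in sgScr and 3091 to 3107 in sg*FOS* libraries, and the sterol sum of LA 1 (1411 CPM) lay beside those of control (1420 to 1425).

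The sterol branch did not move as a block. Of its 22 genes 1 rose, 1 fell and 20 were not called, with a median log2 fold change of 0.13. *HMGCS1*, which makes HMG-CoA at the entry of the pathway, was at 82.9 and 121 CPM in control and at 202 and 295 CPM in *LA* libraries, and rose 2.38-fold (log2 1.25 ± 0.41; adjusted p = 0.036). *PMVK*, which phosphorylates phosphomevalonate, was at 54.0 and 26.1 CPM in control and at 17.6 and 13.6 CPM in *LA* libraries, and was 2.60-fold lower (log2 -1.38 ± 0.45; adjusted p = 0.033). Neither gene overlapped between the groups, although the control libraries of *PMVK* were themselves far apart. The values of the uncalled genes ran from -1.13 for *EBP* to 1.32 for *STARD4*, a sterol carrier. *SREBF2* was at 95.6 and 87.1 CPM in control and at 107 and 192 CPM in *LA* libraries. Both *LA* libraries were above control, and the gene was not called (log2 0.68 ± 0.41; adjusted p = 0.24).

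The log2 fold changes of the sterol genes tended to rise with transcript length. Across the 22 genes the Spearman correlation of log2 fold change with length was 0.82, a description over genes that share the same 4 libraries, and the median transcript was 2683 bp in the sterol branch, 4901 bp in the fatty acid branch and 3241 bp over all tested genes. With the length and GC correction, 4 fatty acid genes and no sterol gene were called higher and none of the 33 was called lower, against 5.45% and 5.13% of all tested genes. *SCD* (log2 1.34 ± 0.37; adjusted p = 0.045), *ACLY* (1.23 ± 0.31; adjusted p = 0.034), *FADS1* (1.08 ± 0.25; adjusted p = 0.027) and *FASN* (0.95 ± 0.26; adjusted p = 0.047) were still called. *PMVK* moved to -0.13 (adjusted p = 0.81), *HMGCS1* to 0.67 (adjusted p = 0.16) and *ACACA* to 0.36 (adjusted p = 0.33). *ELOVL6* (0.66; adjusted p = 0.14) and *LPIN1* (0.87; adjusted p = 0.098) lost their call as well. The uncalled *ACAT2*, *MVD*, *FDPS*, *FDFT1* and *TM7SF2* went from negative to positive values. The corrected medians were 0.32 for the sterol and 0.87 for the fatty acid branch, and the correlation with length was still 0.43 across the sterol genes, so that the correction removed the trend only in part.

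**Figure D3:**
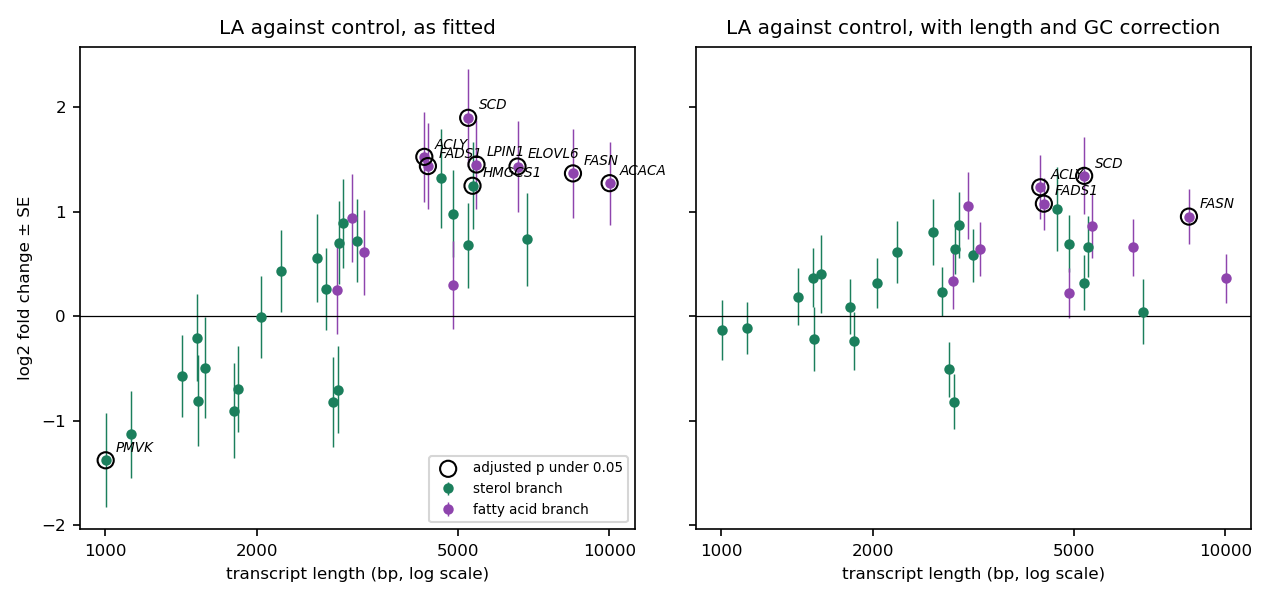
Log2 fold change of *LA* against control (± SE) is plotted against transcript length on a log axis for the 33 genes, as fitted on the left and with the length and GC correction on the right, with rings around called genes. On the left the shortest sterol transcripts lie under 0 and the longest above it, with both signs among those between, and on the right 4 fatty acid genes keep a ring.

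The 2 *LA* libraries were not alike, and neither were the 2 control libraries. The median absolute log2 difference of the 33 genes was 0.416 between *LA* and 0.425 between control libraries. Over all genes it was 0.337 and 0.537. In LA 2, 19 of 22 sterol genes and 8 of 11 fatty acid genes were higher than in LA 1, with median log2 differences of 0.40 and 0.25, where 52.3% of all genes were higher and their median was 0.028. The largest differences were those of *TM7SF2*, a sterol reductase (log2 1.47), *SCD* (1.14) and *DHCR7*, which makes cholesterol in the last step of its route (1.13). *FOS* went the other way, with 335 CPM in LA 1 and 92.8 CPM in LA 2. Leaving out any of these libraries leaves 1 in its group, so only effect sizes are given. The fatty acid median was 1.25 without LA 2, 1.197 without control 1, and 1.19 without LA 1 and without control 2. The sterol median was -0.079 without LA 2, 0.117 without LA 1, -0.059 without control 1 and 0.261 without control 2.

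The sgScr cells carry the fusion and a guide with no target, and were compared with control and with *LA* cells. These comparisons share the sgScr libraries with each other and the control or *LA* libraries with the comparison above, so their values are set side by side and not counted as separate evidence. Against control, 7 of 33 genes rose and 9 fell, where 19.8% of all tested genes were called higher and 21.7% lower. The 7 were *ACACA* (log2 1.37), *ACLY* (1.30), *ELOVL6* (0.99), *FADS1* (0.93), *SCD* (0.75), *LPIN1* (0.55) and, in the sterol branch, *SREBF2* (0.53). The 9 that fell were all of the sterol branch. *MVK*, the mevalonate kinase, was at 55.5 and 31.8 CPM in control and at 12.9, 12.8 and 12.2 CPM in sgScr libraries, and was 3.41-fold lower (log2 -1.77 ± 0.24; adjusted p = 0.0067). *EBP* was at 197 and 99.7 CPM in control and at 53.0, 52.5 and 55.2 CPM in sgScr libraries (log2 -1.45 ± 0.27; adjusted p = 0.012). For both genes the spread lay in the control libraries, and the sgScr libraries were nearly equal. The others were *MVD*, *TM7SF2*, *ACAT2*, *HSD17B7*, *FDPS*, *NSDHL* and *MSMO1*, from -1.32 to -0.65. With the length and GC correction 4 genes were called higher and 9 lower, against 18.6% and 19.6% of all tested genes. These were in large part other genes. *ACLY* (0.98), *ACACA* (0.53) and *FADS1* (0.54) kept their call, and *SREBF2* (0.26), *ELOVL6* (0.22), *SCD* (0.16) and *LPIN1* (-0.056) lost it. Of the genes lower before, *MVK* (-1.40), *EBP* (-0.61) and *MSMO1* (-0.66) kept their call, and *ACAT2* (-0.42), *NSDHL* (-0.32), *HSD17B7* (-0.29), *MVD* (-0.22), *FDPS* (-0.051) and *TM7SF2* (0.018) lost it. *INSIG1*, *IDI1*, *GGPS1*, *HMGCS1*, *SC5D* and the fatty acid gene *SREBF1* were lower with the correction alone, from -0.58 to -0.30, with *HMGCS1* and *SC5D* at 0.33 and 0.25 without it. *PMVK* was higher with the correction (0.54; adjusted p = 0.013) and at -0.57 without it (adjusted p = 0.16). Without any 1 of the sgScr libraries edgeR called no gene of the 33, with 14 to 15 at an unadjusted p under 0.05. Few of all tested genes were called in these fits. They were 117 higher and 13 lower of 14162 without sgScr 1, and 3 higher and 0 lower without sgScr 2 or sgScr 3. Leaving out a control library leaves 1 in that group. The sterol and fatty acid medians were then -0.42 and 0.58 without control 1, and -0.29 and 0.71 without control 2.

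Against *LA* cells, 17 of 33 genes were lower in sgScr and 1 was higher, where 12.3% and 10.6% of all tested genes were called. The fall covered 10 sterol and 7 fatty acid genes, with branch medians of -0.51 and -0.65 against -0.016 over all genes. *SCD* was at 821, 820 and 823 CPM in sgScr libraries, under both *LA* libraries and above both control libraries (log2 -1.22 ± 0.30; adjusted p = 0.035). *MSMO1*, a sterol methyl oxidase, was at 67.3 and 86.5 CPM in *LA* and at 36.0, 34.5 and 35.2 CPM in sgScr libraries, under control as well (54.3 and 57.3 CPM), with a log2 fold change of -1.15 ± 0.12 (adjusted p = 0.0040). *INSIG1* was at 61.5 and 64.3 CPM in *LA* and at 29.8, 28.7 and 30.4 CPM in sgScr libraries (log2 -1.11 ± 0.087; adjusted p = 0.0018). These 3 genes were nearly equal among the sgScr libraries. *FASN* (log2 -1.02), *FADS2* (-1.01), *MVK* (-1.01) and *HMGCS1* (-0.98) fell by about as much, and *LSS*, *LPIN1*, *IDI1*, *SREBF1*, *ACAT2*, *AACS*, *FADS1*, *SC5D*, *CYP51A1* and *FDFT1* fell by less, from -0.96 to -0.39. *PMVK* rose (0.76). *ACACA* (0.038; adjusted p = 0.76) and *ACLY* (-0.28; adjusted p = 0.19) were not called, so that the genes of the first fatty acid steps were at 233 to 243 and 747 to 770 CPM in sgScr cells. With the length and GC correction 2 genes were called higher and 20 lower, where 1793 and 2051 of all 13311 tested genes were. *EBP* (-0.51), *FDPS* (-0.26), *DHCR7* (-0.90), *ACSS2* (-0.61) and, higher, *GGPS1* (0.36) gained a call. *SC5D* (-0.56; adjusted p = 0.089) lost it. Leaving out LA 1 or LA 2 leaves 1 *LA* library, so only effect sizes are given. The sterol and fatty acid medians were -0.69 and -0.86 without LA 1, and -0.29 and -0.53 without LA 2. Without any 1 sgScr library 3 to 5 genes of the 33 were called lower, where 218 to 310 of all tested genes were. *SREBF2* was -0.21 in this comparison (adjusted p = 0.53) and 0.28 without LA 2.

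**Figure D4:**
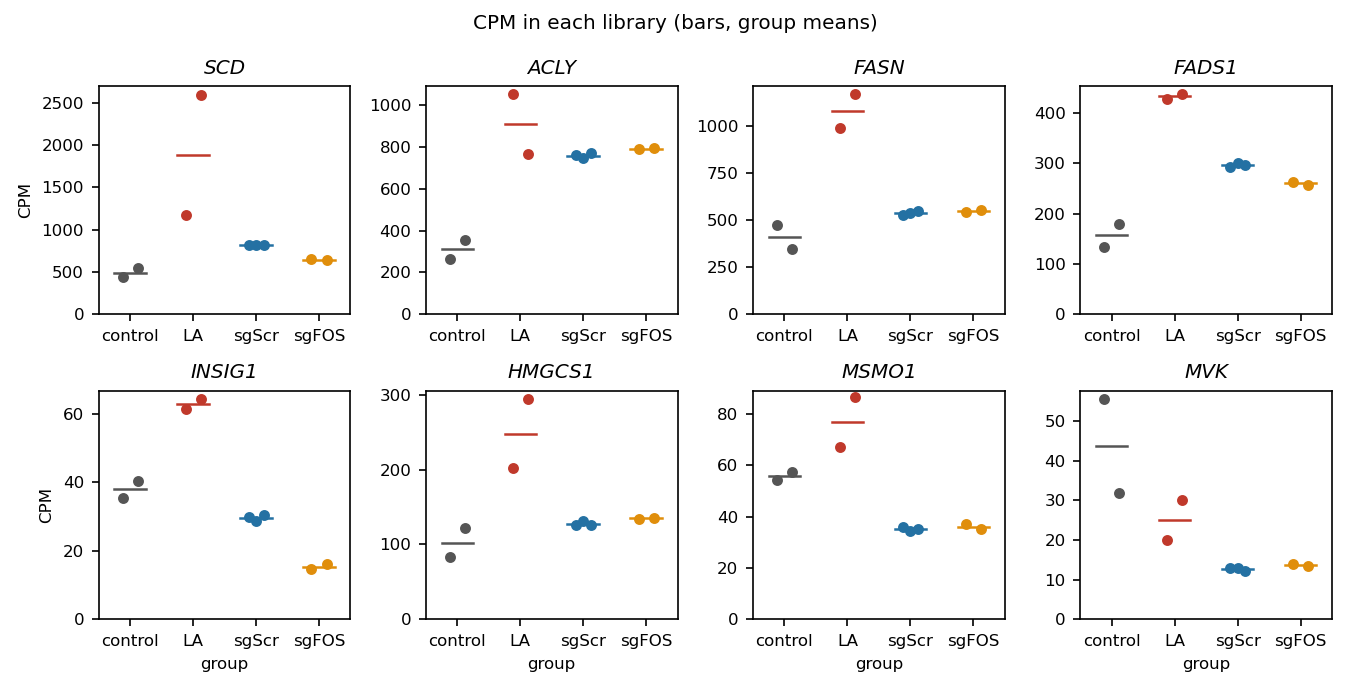
Points are the CPM of single libraries and bars are group means for 4 fatty acid genes (top) and 4 sterol branch genes (bottom), with every axis starting at 0. *SCD*, *FASN*, *INSIG1*, *HMGCS1* and *MSMO1* are highest in *LA* libraries, *ACLY* stays near its *LA* range in sgScr and sg*FOS* libraries, and *MVK* is highest in control.

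The comparison of sg*FOS* with sgScr set *LA* cells targeted at *FOS* against *LA* cells with a scramble guide. *FOS* RNA in the sg*FOS* libraries (68.4 and 74.1 CPM) was lower than in sgScr but still above control (10.8 and 9.15 CPM). *FOS* protein was not measured in these data. *INSIG1* was the gene with the largest change of the 33. It was at 29.8, 28.7 and 30.4 CPM in sgScr and at 14.7 and 16.0 CPM in sg*FOS* libraries, with a wide gap between groups and little spread within them, and was 1.92-fold lower (log2 -0.94 ± 0.085; adjusted p = 3.4e-11). It was the 105th lowest of 14196 log2 fold changes. Its level in sg*FOS* cells was also under that in control cells (35.6 and 40.3 CPM), with which sg*FOS* was not compared by a test. *INSIG1* holds SREBP proteins in the endoplasmic reticulum and is itself a well known SREBP target.

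Over the 33 genes 7 fell and 1 rose, where 10.5% of all tested genes were called lower and 12.2% higher, and the branch medians were -0.056 for the sterol and -0.072 for the fatty acid branch. *SCD* was at 821, 820 and 823 CPM in sgScr and at 650 and 643 CPM in sg*FOS* libraries (log2 -0.34 ± 0.033; adjusted p = 2.0e-10). *ELOVL6* was at 41.5, 42.5 and 39.9 CPM in sgScr and at 34.5 and 33.7 CPM in sg*FOS* libraries (log2 -0.27 ± 0.064; adjusted p = 0.0014). *IDI1*, the isopentenyl diphosphate isomerase, was at 47.2, 45.9 and 45.6 CPM in sgScr and at 38.5 and 38.2 CPM in sg*FOS* libraries (log2 -0.27 ± 0.060; adjusted p = 9.7e-04). None of the 3 overlapped between groups, with falls smaller than that of *INSIG1*. *SREBF1* was at 246, 232 and 239 CPM in sgScr and at 201 and 216 CPM in sg*FOS* libraries (log2 -0.19 ± 0.039; adjusted p = 2.6e-04). *FADS1* was at 293, 301 and 297 CPM in sgScr and at 263 and 256 CPM in sg*FOS* libraries (log2 -0.19 ± 0.036; adjusted p = 9.5e-05). *ACACA* was at 243, 233 and 238 CPM in sgScr and at 220 and 221 CPM in sg*FOS* libraries (log2 -0.10 ± 0.036; adjusted p = 0.033). These falls are small and are read against replicates that hardly differ.

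*TM7SF2* was at 10.4, 11.1 and 10.5 CPM in sgScr and at 13.0 and 14.7 CPM in sg*FOS* libraries, and rose (log2 0.38 ± 0.11; adjusted p = 0.012). It shares counted exon sequence with *VPS51* on the same strand, and was not called without sg*FOS* 2 (adjusted p = 0.21). *SREBF2* was at 130, 129 and 134 CPM in sgScr and at 120 and 124 CPM in sg*FOS* libraries and was not called (log2 -0.094 ± 0.040; adjusted p = 0.091). *FASN* (0.030), *ACLY* (0.066), *HMGCS1* (0.082) and *SQLE* (0.0056), the squalene epoxidase, lay near 0, and none of them was called in the fit without correction. With the length and GC correction 10 genes were called lower and 2 higher, against 10.1% and 10.8% of all tested genes, and all 8 genes called without it were among them. The genes gained were *SREBF2* (-0.17; adjusted p = 0.0010), *FADS2* (-0.14), *FDPS* (-0.13) and, higher, *HMGCS1* (0.14; adjusted p = 0.0059). With all 9 libraries in a single fit, which shares the wide spread of control and *LA* with these groups, edgeR called no gene of the 33 and 1 had an unadjusted p under 0.05 (*INSIG1* -0.95, adjusted p = 0.50). That fit called 0 of all 14849 tested genes in either direction, so its count is not particular to the 33.

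**Figure D5:**
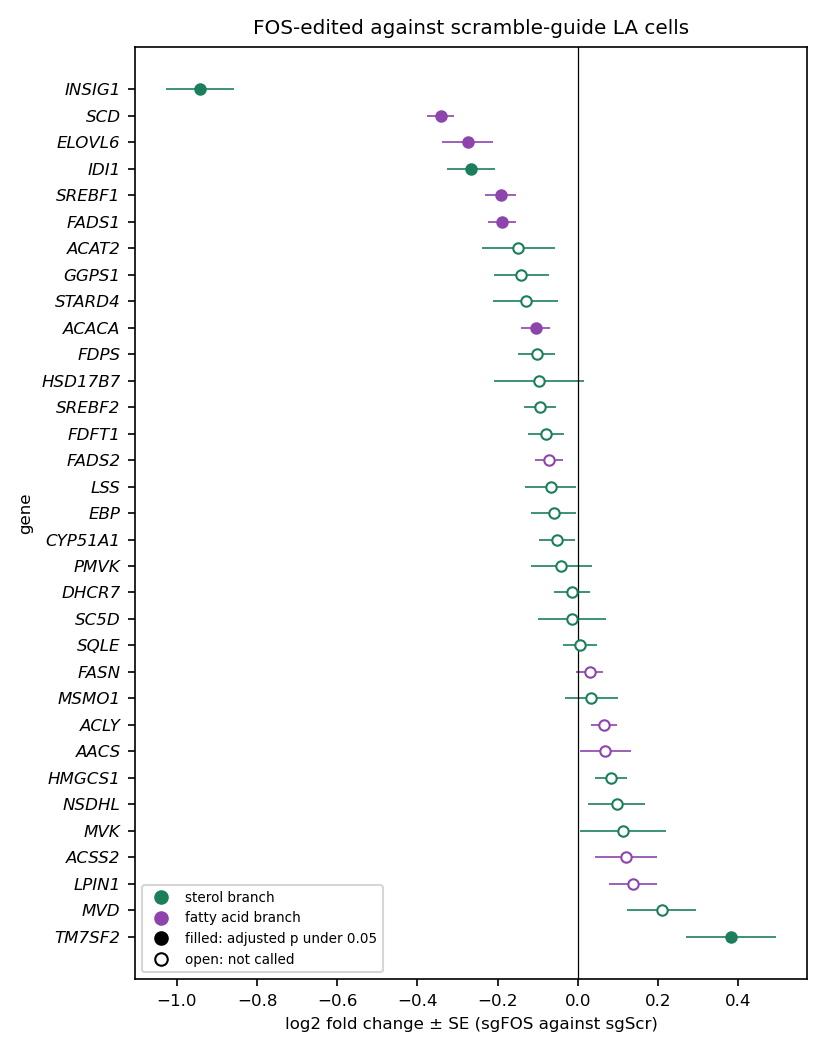
Points give the log2 fold change of sg*FOS* against sgScr for the 33 genes and lines its SE, filled where the adjusted p was under 0.05. *INSIG1* stands alone at -0.94, the other called genes lie between -0.34 and 0.38, and most open points lie within 0.2 of 0.

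Genes around the 2 branches were counted in the same fits, with the same shares of all tested genes called (9.57% higher and 9.94% lower in *LA* against control, 12.2% and 10.5% in sg*FOS* against sgScr). Of 11 genes for SREBP processing and its regulators, only *MBTPS2*, the second protease that cuts SREBP, rose in *LA* against control (log2 1.17; adjusted p = 0.048), a call lost with the length and GC correction (0.73; adjusted p = 0.069), and in sg*FOS* against sgScr *ERLIN1* fell (-0.15) and *RNF145* rose (0.12). Of 13 tested genes for sterol uptake, transport, storage and efflux, 3 rose in *LA* and none fell. *VLDLR*, a lipoprotein receptor, was at 4.20 and 11.4 CPM in control and at 52.1 and 46.9 CPM in *LA* libraries (log2 2.63; adjusted p = 0.0014). *NPC1*, which exports cholesterol from lysosomes, was at 12.7 and 29.6 CPM in control and at 115 and 88.3 CPM in *LA* libraries (log2 2.23; adjusted p = 0.0024), and *OSBP*, an oxysterol binding protein, had a log2 fold change of 1.28. With the correction *VLDLR* (1.78) and *NPC1* (1.81) were still called, and *OSBP* was not (0.85; adjusted p = 0.061). In sg*FOS* cells 3 genes of this list rose and 2 fell, among them *MYLIP*, a ubiquitin ligase for lipoprotein receptors (-0.53; adjusted p = 6.6e-04), *NPC2* (0.33) and *SCARB1*, the HDL receptor (0.18).

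Of 24 tested genes for other steps of fatty acid elongation, desaturation, activation and supply, 5 rose and 1 fell in *LA* against control, led by *HACD2*, a dehydratase of the elongation cycle (log2 2.89), *ELOVL7*, an elongase (1.94), and *ACSL4*, which activates arachidonate (1.80). These 3 were still called with the correction (2.65, 1.75 and 1.26), and the other 3, *ACSL3* (0.73), *LPIN2* (0.61) and *TECR* (-0.33, from -1.52), were not. In sg*FOS* against sgScr 3 rose and 4 fell, and the largest changes were those of *FADS3* (0.28), *ACSL3* (-0.27) and *SCD5* (0.25), the last opposite in sign to *SCD*. Of 19 tested fatty acid oxidation genes 1 rose and 3 fell in *LA*. *PPARA*, a receptor for fatty acids, rose (2.31), and *ETFB*, an electron carrier subunit (-2.13), and *ECI2*, an enoyl-CoA isomerase (-1.68), fell. With the correction *PPARA* was still called (1.40; adjusted p = 0.032), whereas all 3 falls lost their call, *ETFB* at -0.68 (adjusted p = 0.15), *ECI2* at -1.05 (adjusted p = 0.093) and *ECI1* at -0.62 (adjusted p = 0.14). In sg*FOS* against sgScr *ACAA1*, a peroxisomal thiolase, had a log2 fold change of 0.17 (adjusted p = 0.041), which was 0.12 with the correction (adjusted p = 0.17), and no oxidation gene was called lower. None of the 13 tested genes that use isoprenoids downstream of *FDPS* and *GGPS1* was called by edgeR in either comparison, with 2 at an unadjusted p under 0.05 in *LA* against control and 1 in sg*FOS* against sgScr.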

How the data were processed

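For 9 A549 libraries the authors deposited gene counts, whole and not normalized, from stranded paired-end mRNA libraries aligned to hg19 with STAR 2.7.10b per the methods, which name DESeq2 1.26.0 for testing. The counting program, annotation and strand setting are not given in the sources used here, so genes with overlapping exons (*ACAT2*, *MVK*, *IDI1*, *FDPS*, *GGPS1*, *CYP51A1*, *TM7SF2*, *STARD4*, *SREBF1*, *FADS1* and *FADS2*) and with near-identical pseudogenes (*HSD17B7*, *FDPS* and *AACS*) are uncertain. Members and lists were chosen with earlier results of these data known. Groups came from the sample labels. Counts were fitted in R 4.3.3 with edgeR 4.0.16 (TMM, filterByExpr, quasi-likelihood test, Benjamini-Hochberg adjustment over all tested genes) on the libraries of each comparison alone, and tested on simulated data first. SE is the absolute log2 fold change divided by the square root of F. CPM are scaled by TMM factors over all 9 libraries. Lengths and GC content came from GENCODE on GRCh37, the canonical transcript, and the length and GC offset was fitted per library by loess (span 0.5). Overlapping comparisons share libraries.

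All 33 members are named, with full values for those called in *LA* against control or sg*FOS* against sgScr and for *SREBF1* and *SREBF2*, plus up to 3 called genes with the largest change from each other list, of which 1 is not reported here. Alternatives were DESeq2 1.42.0, its size factors, library size alone, upper quartile, no filter, a mean of at least 50 counts, the replicate block, the length and GC correction, all 9 libraries fitted together, the study's threshold and leaving out each library.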

Additional observations from a re-analysis of the deposited data

How the results depend on the processing

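Genes of the 33 called higher or lower are counted here, with edgeR's quasi-likelihood test unless another tool is named. In *LA* against control (8 higher, 1 lower), the higher count was 17 with all 9 libraries in a single fit, 3 with the replicate block and 4 with the length and GC correction. Block and correction together called 9 higher, 3 of them sterol genes, and 1 lower. The counts over all tested genes moved as well, from 1380 higher and 1434 lower of 14425 in the main fit. They were 3552 and 3247 of 14849 with all 9 libraries and 791 and 728 of 14425 with the block. They were 721 and 678 of 13218 with the correction and 1246 and 1098 with both. The lower count was 2 with DESeq2, 2 with a mean of at least 50 counts, 2 with the study's threshold (an absolute log2 fold change above 0.5 and an unadjusted p under 0.05), 7 with all 9 libraries, and 0 with library size alone, the replicate block or the length and GC correction. Leaving out a library gave 0 to 12 higher and 0 to 5 lower. In sgScr against control (7 higher, 9 lower), the higher count was 4 with all 9 libraries, 3 with the replicate block, 4 with the length and GC correction and 1 with both. The lower count was 4 with library size alone, 3 with the replicate block and 2 with block and correction, and leaving out a library gave 0 to 14 higher and 0 to 17 lower. In sgScr against *LA* (1 higher, 17 lower), the higher count was 0 with all 9 libraries or the replicate block and 2 with the length and GC correction, the lower count was 10 with all 9 libraries and 8 with the replicate block, and leaving out a library gave 0 to 5 higher and 3 to 27 lower. In sg*FOS* against sgScr (1 higher, 7 lower), the higher count was 0 with DESeq2, all 9 libraries or the study's threshold. It was 2 with the replicate block or the length and GC correction. The lower count was 0 with all 9 libraries and 1 with the study's threshold. Over all tested genes 0 of 14849 were called with all 9 libraries, and 989 higher and 828 lower of 19742 with DESeq2. They were 1670 and 1480 of 14196 with the block and 1412 and 1319 of 13039 with the correction. Leaving out an sgScr library gave 1 to 2 higher and 6 to 7 lower, with 1358 to 1843 and 1046 to 1675 over all tested genes. The cause of these moves was not tested.

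The replicate numbers did not pair the samples. Same-numbered libraries had correlations of their deviations of -0.25 in *LA* against control, 0.038 to 0.042 in sgScr against control, -0.020 to -0.014 in sgScr against *LA*, and -0.13 and 0.018 in sg*FOS* against sgScr, so the block results are given only here. A crossed replicate block for *LA* against control, added after seeing the data, called 8 higher and 2 lower. Scaling by library size alone moved the median of all genes in *LA* against control from 0.044 to 0.33, with 1601 genes called higher and 682 lower where TMM called 1380 and 1434, and in sgScr against control from 0.019 to 0.20, with 3003 and 2278 in place of 2872 and 3137.

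Of the called genes, *LPIN1* and *TM7SF2* changed sign in sgScr against control. They moved from 0.55 to -0.056 and from -0.94 to 0.018 with the length and GC correction and to -0.014 and 0.032 with the replicate block added. Among genes not called without it, the correction also changed the sign of *ACAT2*, *MVD*, *FDPS*, *FDFT1* and *TM7SF2* in *LA* against control, of *PMVK*, *HMGCS1*, *SC5D*, *LSS*, *STARD4* and *FADS2* in sgScr against control, of *HSD17B7* in sgScr against *LA*, and of *SC5D* and *FASN* in sg*FOS* against sgScr. *SREBF1* ranged from -0.11 to 0.69 in *LA* against control and from -0.71 to 0.062 in sgScr against control when single libraries were left out, and *SREBF2* from -0.55 to 0.28 in sgScr against *LA*. Among the called genes, 86 of 126 values in *LA* against control, 147 of 240 in sgScr against control, 204 of 270 in sgScr against *LA* and 104 of 120 in sg*FOS* against sgScr kept direction and call under the alternatives. The SE of the 33 genes, 0.392 to 0.484 in *LA* against control and 0.033 to 0.113 in sg*FOS* against sgScr, limits what the first can detect.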
